A study of Homo sapiens with 12 samples.

Results

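The transcripts of 10 carriers of neutral and cationic amino acids were followed in MiaPaCa-2 cells, a line grown from a human pancreatic carcinoma, after knockdown of 3 genes of citrate metabolism. The carriers were SLC7A1, SLC7A5, SLC7A6, SLC1A4, SLC1A5, SLC38A1, SLC38A2, SLC6A9, SLC43A1 and SLC36A4. They were found by matching each symbol to the Ensembl gene identifiers of a read count table, and made up 10 of its 70116 rows. All 10 passed the filter on low counts and were among the 16197 genes tested. Cells were transfected with small interfering RNA (siRNA), a short duplex that directs the breakdown of a matching transcript, and fell into 4 groups of 3 libraries: siControl, siSLC25A1, siACLY and siACO1. SLC25A1 encodes the mitochondrial citrate carrier, ACLY the ATP-citrate lyase that makes acetyl-CoA in the cytosol, and ACO1 the aconitase of the cytosol, which isomerises citrate and, when its iron-sulfur cluster is lost, acts as an iron-regulatory RNA-binding protein. The labels give no siRNA sequence, dose, medium or time after transfection, and all libraries come from 1 cell line. Nothing in them says that the 3 replicates of a group were separate cultures, so the p-values below measure the spread between these libraries, which may be technical.

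The carriers differ in what they move and how. SLC7A5 (LAT1), with the heavy chain SLC3A2 (CD98), exchanges large neutral amino acids such as leucine for intracellular glutamine, and SLC7A6 (y+LAT2), with the same heavy chain, exchanges cationic for neutral amino acids. SLC43A1 (LAT3) carries branched-chain amino acids by facilitated diffusion, and SLC7A1 (CAT-1) brings in arginine and lysine. SLC1A5 (ASCT2) and SLC1A4 (ASCT1) are sodium-dependent exchangers of small neutral amino acids, SLC1A5 with glutamine among its substrates. SLC38A1 (SNAT1) and SLC38A2 (SNAT2) are the concentrative system A carriers of alanine and glutamine, SLC6A9 (GlyT1) takes up glycine, and SLC36A4 (PAT4) is a high-affinity carrier of proline and tryptophan. Several of these genes are known targets of ATF4, the transcription factor whose translation rises when amino acids are short, and which binds composite C/EBP-ATF sites together with C/EBP partners.

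Promoter windows are shown first, because several of these genes are known ATF4 targets and the ATF4 genes are measured below. RefSeq windows on GRCh38.p14, from 250 bases before to 50 bases after an annotated start, were found for all 10 transporters, 16 windows in all. They were searched on both strands for TGATGNAA, the C/EBP-ATF composite motif, and for no other motif. It was present in 4 of the 16 windows (25.0%), each in a different transporter, SLC7A1, SLC1A4, SLC1A5 and SLC38A1. Of all 35116 RefSeq windows of that length 3.62% held it, and of the 15333 windows of tested genes 2%. Counted by gene, 4 of the 10 transporters (40%) held it in a window, beside 2.69% of the 10678 tested genes with a window. In the windows below, written 5′ to 3′ on the strand of the gene, capitals mark the motif. SLC7A1 has 1 window, chr13:29595639-29595938 on the minus strand, with the motif at bases 8 to 15 after the start. For SLC1A4 it is the second of 2 windows, chr2:64989149-64989448 on the plus strand, where the motif lies on the opposite strand and reads TTGCATCA, 7 bases before to 1 base after the start. For SLC38A1 it is the first of 2 windows, chr12:46266467-46266766 on the minus strand, with the motif from 4 bases before to 4 bases after the start.
SLC7A1: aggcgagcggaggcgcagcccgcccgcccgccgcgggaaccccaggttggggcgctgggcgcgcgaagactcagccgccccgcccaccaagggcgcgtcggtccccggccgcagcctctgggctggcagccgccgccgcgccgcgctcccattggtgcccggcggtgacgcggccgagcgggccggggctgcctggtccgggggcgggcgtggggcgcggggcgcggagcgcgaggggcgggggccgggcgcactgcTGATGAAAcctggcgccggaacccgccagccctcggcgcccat
SLC1A4: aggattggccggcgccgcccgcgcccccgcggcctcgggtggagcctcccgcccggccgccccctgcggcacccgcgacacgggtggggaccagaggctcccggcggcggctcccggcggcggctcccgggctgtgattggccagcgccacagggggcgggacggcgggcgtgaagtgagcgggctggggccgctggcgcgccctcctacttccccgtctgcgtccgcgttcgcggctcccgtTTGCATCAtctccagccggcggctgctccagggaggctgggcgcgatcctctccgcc
SLC38A1: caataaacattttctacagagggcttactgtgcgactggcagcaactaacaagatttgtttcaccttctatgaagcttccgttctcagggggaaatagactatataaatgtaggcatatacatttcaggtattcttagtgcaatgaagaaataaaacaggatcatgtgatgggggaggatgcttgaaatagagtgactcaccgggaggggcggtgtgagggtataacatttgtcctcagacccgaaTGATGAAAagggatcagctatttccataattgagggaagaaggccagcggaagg
For SLC1A5 the match lies 97 to 90 bases before the third of 3 annotated starts, in the stretch chr19:46784893-46784922 on the minus strand.
SLC1A5: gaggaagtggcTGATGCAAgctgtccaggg
The 12 other windows of the 10 transporters hold no such letters. Sequence outside the windows was not searched, so a transporter without a match here may hold the motif elsewhere. A match describes the letters only, and counts per gene do not tell which start the reads came from.

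The libraries held 24159424 to 43792811 counts. Each siRNA lowered its target: SLC25A1 went from 134 ± 0.690 CPM (counts scaled to a common library size) in siControl to 11.7 ± 1.18 in siSLC25A1, ACLY from 498 ± 7.54 to 36.1 ± 0.504 in siACLY, and ACO1 from 45.0 ± 1.57 to 1.68 ± 0.331 in siACO1 (mean ± SD, n = 3 in each group, as throughout). Replicate 3 of siACO1 stood apart from the other siACO1 libraries on the fourth principal component. Results of siACO1 are therefore given with and without it where a transporter call changed, and for some other values. Of the 6 epithelial markers checked, KRT8, KRT18, KRT19 and MUC1 were read at high levels and EPCAM and CDH1 at close to 0. Their summed level was 3625 to 3761 CPM in siControl, 3138 to 3463 in siSLC25A1, 3831 to 3929.9 in siACLY and 2076 to 2192 in siACO1, where all 4 tested markers fell. In siSLC25A1, 3 of these 4 fell, KRT8 (-0.18 on the log2 scale), KRT18 (-0.20) and MUC1 (-0.51), while KRT19 rose (0.45). In siACLY, KRT19 rose (0.67) and MUC1 fell (-0.98), and KRT8 (0.08) and KRT18 (-0.01) were not called. The 3 mesenchymal markers VIM, ZEB1 and FN1 summed to 3568 to 3715.5 CPM in siControl, 3919 to 3990.3 in siSLC25A1, 4371 to 4908.5 in siACLY and 3536 to 3900.0 in siACO1. Of them ZEB1 (0.65) and FN1 (0.69) rose in siSLC25A1, ZEB1 (0.60) and VIM (0.36) in siACLY, and 0 passed in siACO1 with edgeR or DESeq2 (1 at an unadjusted p below 0.05). Whether these shifts bear on the transporter results was not tested. Markers of acinar and islet cells reached at most 0.124 CPM in any library, and those of immune, endothelial and fibroblast cells at most 0.271 CPM. In bulk RNA, fewer cells of one type and less RNA per cell cannot be told apart.

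SLC7A5 was the most abundant of the 10 transcripts per length. Dividing CPM by the length of the union of a gene's exons (GENCODE 29) gave, in siControl, 284 ± 13.9 CPM per kb for SLC7A5, 138 ± 1.92 for SLC38A2 and 90.0 ± 0.783 for SLC1A5. The heavy chain SLC3A2 lay just below SLC1A5, at 77.2 ± 2.06 CPM per kb. SLC38A1 at 30.7 ± 0.911 and SLC7A1 at 29.7 ± 0.543 CPM per kb were neighbours whose means differed by about their spread. SLC6A9 followed at 11.7 ± 0.652, SLC7A6 at 7.84 ± 0.324, SLC1A4 at 6.33 ± 0.286, SLC43A1 at 3.21 ± 0.0998 and SLC36A4 at 2.38 ± 0.175 CPM per kb. The order changed with the knockdowns. In siACO1, SLC7A5 at 173 ± 1.67 CPM per kb had come close to SLC38A2 at 169 ± 1.39, and SLC36A4 (3.20 ± 0.237) and SLC43A1 (2.91 ± 0.360) overlapped. In siACLY, SLC1A4 at 10.3 ± 0.394 CPM per kb stood above SLC7A6 at 6.64 ± 0.140 and next to SLC6A9 at 10.8 ± 0.354.

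**Figure D1:**
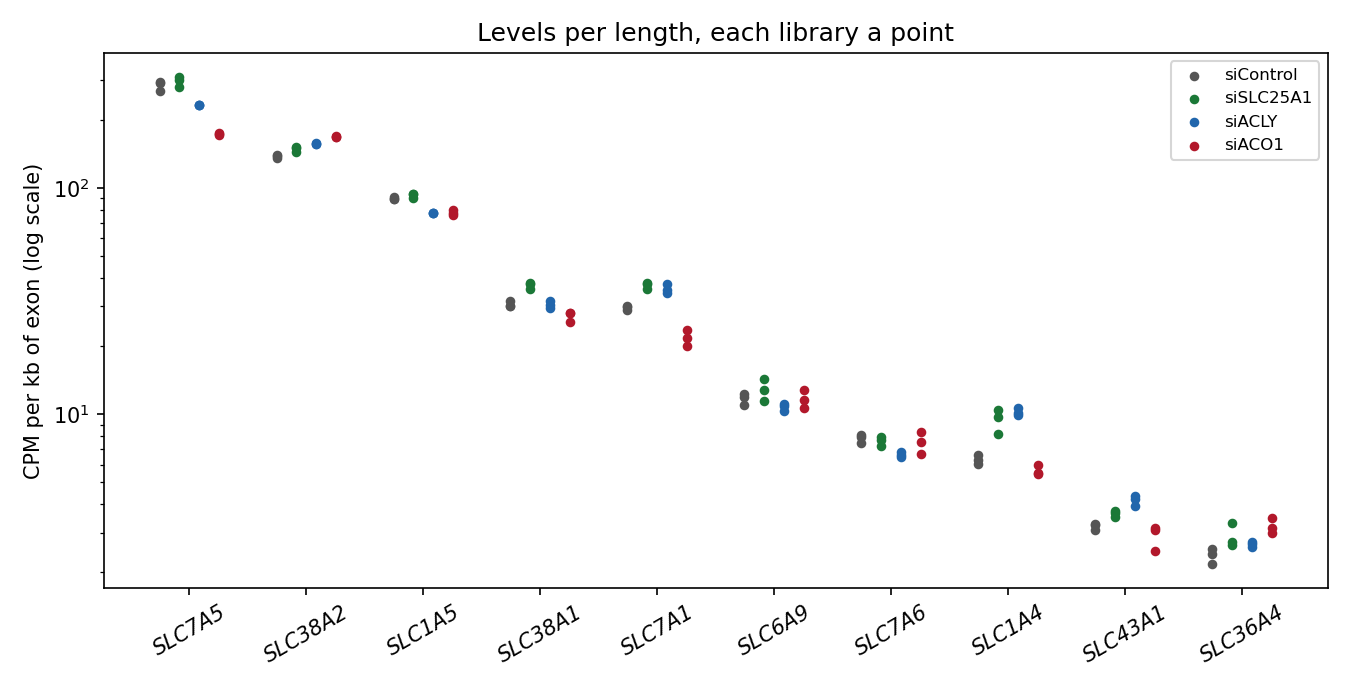
Level of each transporter per length of exon (CPM per kb, log scale), each point 1 of the 12 libraries, coloured by group, with genes ordered by their siControl mean. SLC7A5 leads at 284 CPM per kb in siControl and comes down to 173 in siACO1, beside SLC38A2 at 169.

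Against siControl, 9 of the 10 transporters passed the test in at least 1 knockdown, all but SLC6A9. Only SLC7A1 and SLC38A2 passed in all 3. After siSLC25A1, 5 transporters rose and 0 fell (SLC7A1, SLC1A4, SLC38A1, SLC38A2 and SLC36A4); 0 were lower at an unadjusted p below 0.05 or with DESeq2. After siACLY, 4 rose (SLC7A1, SLC1A4, SLC38A2 and SLC43A1) and 3 fell (SLC7A5, SLC7A6 and SLC1A5). After siACO1, 2 rose (SLC38A2 and SLC36A4) and 4 fell (SLC7A1, SLC7A5, SLC1A5 and SLC38A1). SLC7A1 and SLC38A1 were thus called in opposite directions in different knockdowns, 4 transporters were called only higher and 3 only lower. The share of all tested genes called in at least 1 knockdown, in all 3 or in opposite directions was not computed. Those counts are therefore not read as a trait of the transporters, and the shares for each knockdown follow below.

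**Figure D2:**
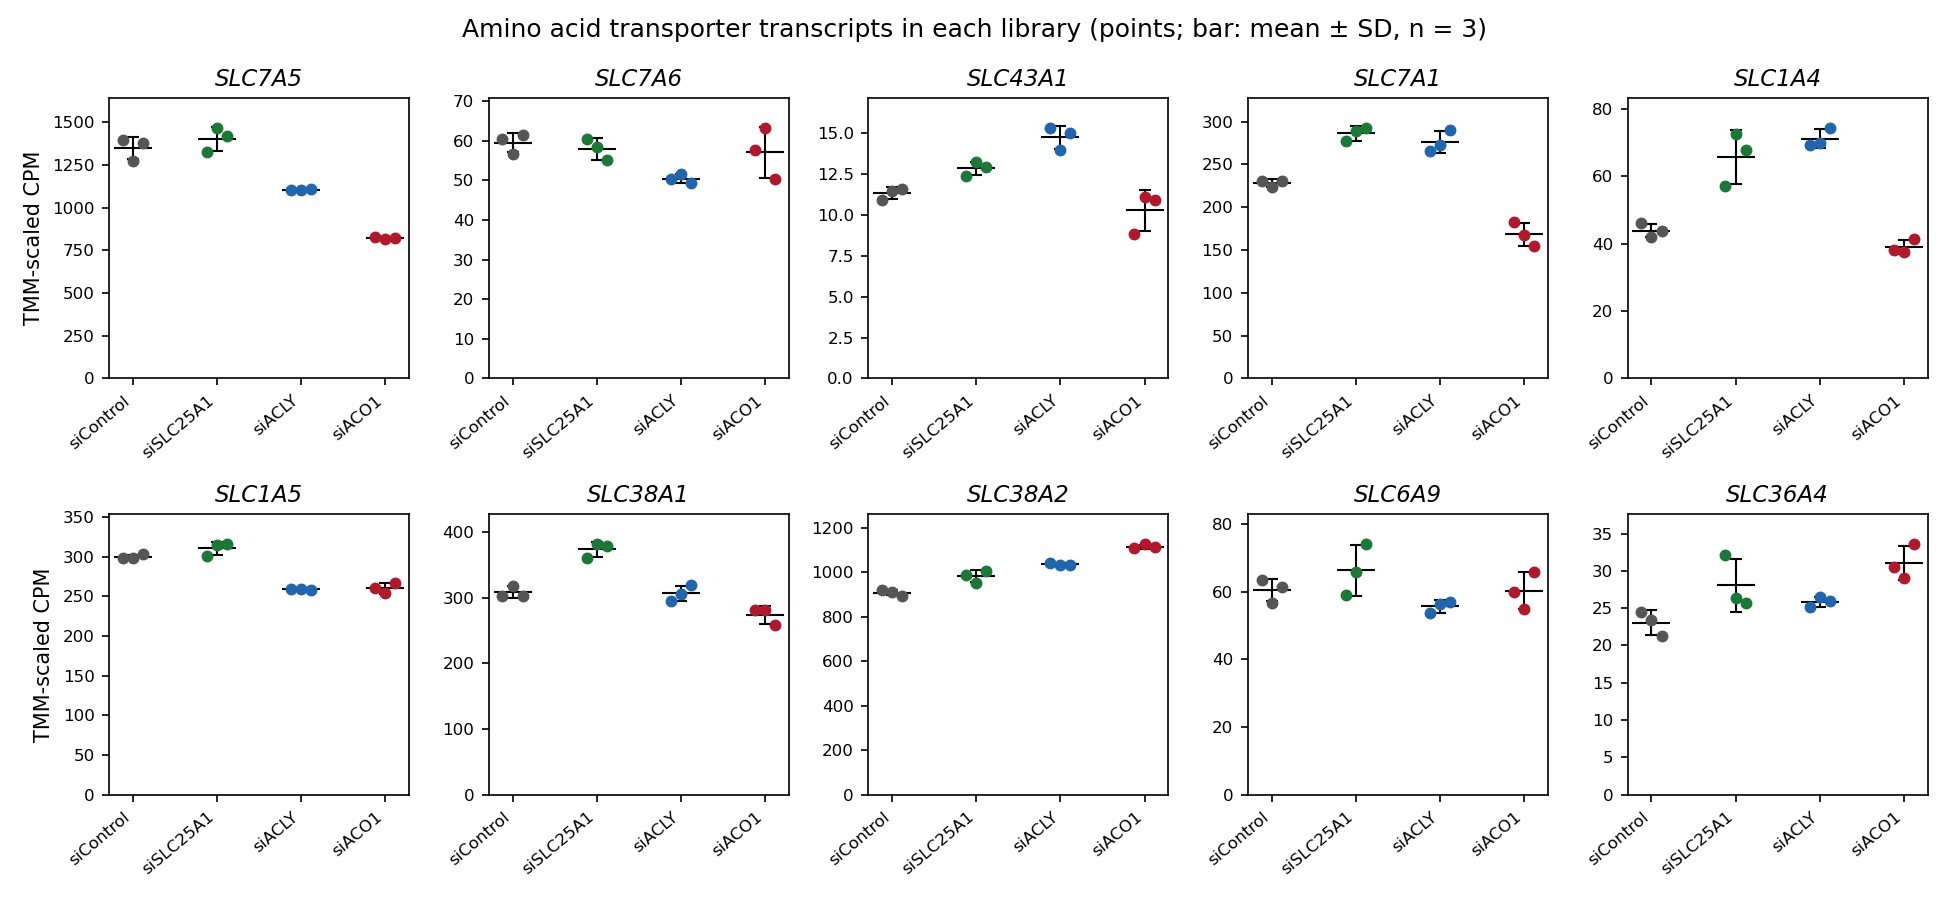
CPM of each transporter in each library (points), with the group mean and SD (bars, n = 3) on a linear axis starting at 0. SLC7A1 and SLC1A4 lie above siControl in every siSLC25A1 and siACLY library, and SLC7A5 is lowest in siACO1, at 823 CPM.

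These counts stand beside the whole transcriptome. The threshold for a call was an adjusted p of 0.05 (edgeR quasi-likelihood test, Benjamini-Hochberg adjustment over 16197 genes). Among all tested genes, 10.3% were called higher and 9.27% lower in siSLC25A1, 18.4% and 18.3% in siACLY, and 17.8% and 19.3% in siACO1. The transporters are well read, with 219 counts (SLC43A1) to 50096 counts (SLC7A5) per library, and calls are commoner among such genes. Among the 8759 tested genes averaging 10 CPM or more, a cut chosen after the data were seen, 16.2% were higher and 13.1% lower in siSLC25A1, 20.5% and 28.1% in siACLY, and 21.8% and 28.5% in siACO1. The median change of the 10 transporters (log2) was 0.16 in siSLC25A1, 0.08 in siACLY and -0.15 in siACO1, against 0.00, 0.01 and 0.01 over all tested genes. The median size of change, without sign, was 0.16, 0.22 and 0.19 for the transporters and 0.15, 0.20 and 0.21 over all tested genes. The 3 comparisons use the same siControl libraries, so their values are set side by side here without a measure of likeness.

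**Figure D3:**
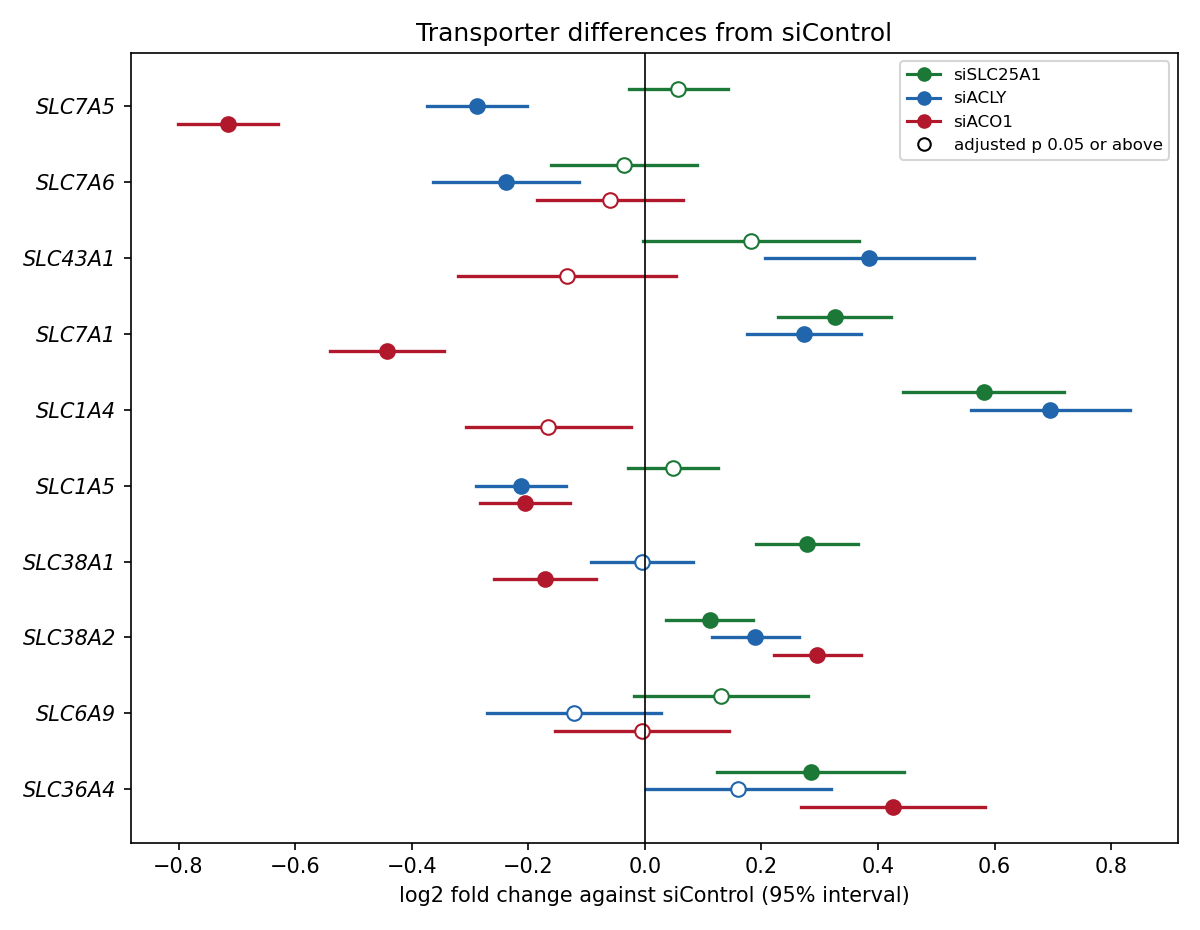
Log2 fold change of each transporter against siControl in the 3 knockdowns, with 95% intervals; filled points passed the test and open points did not. SLC1A4 is farthest to the right, at 0.58 in siSLC25A1 and 0.70 in siACLY, and SLC7A5 farthest to the left, at -0.71 in siACO1.

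Between knockdowns, 5 transporters were higher and 0 lower in siSLC25A1 than in siACLY, beside 17.5% and 16.3% of all tested genes; 2 were lower at an unadjusted p below 0.05 and 0 with DESeq2. Against siACO1, 6 were higher and 1 lower in siSLC25A1 (21.8% and 20.3% of all genes), and 5 were higher and 3 lower in siACLY (21.4% and 20.7%). Among tested genes averaging 10 CPM or more, the shares higher and lower were 28.5% and 17.6% for siSLC25A1 against siACLY, 32.5% and 23.6% for siSLC25A1 against siACO1, and 26.9% and 28.6% for siACLY against siACO1. The median transporter difference was 0.16, 0.28 and 0.08 in these comparisons, against -0.01, -0.01 and 0.00 over all tested genes.

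Of the carriers of large neutral amino acids, SLC7A5 fell the most of the 10 in siACO1. SLC7A5 (ENSG00000103257.9, GRCh38 chr16:87830023-87869488, minus strand) was at 1397, 1275 and 1377 CPM in the siControl libraries and at 1328, 1466 and 1420.2 in siSLC25A1. It was at 1105, 1101 and 1111 CPM in siACLY and at 829.6, 814 and 824 in siACO1. Every siACLY library lay below every siControl library and every siACO1 library below both, while siSLC25A1 overlapped siControl. The log2 fold change was -0.29 (SE 0.04, adjusted p 2.53e-06) in siACLY and -0.71 (SE 0.04, adjusted p 6.23e-14) in siACO1, which left 60.9% of the control level. In siSLC25A1 it was 0.06 (95% interval -0.03 to 0.14, adjusted p 0.37). The knockdowns also differed from each other, with siSLC25A1 above siACLY by 0.35 (adjusted p 1.58e-07) and siACLY above siACO1 by 0.43 (adjusted p 1.56e-09). Short stretches of its exons, 11.2% of all 31-base stretches, also occur in other genes. These genes are SLC7A5P1, SLC7A5P2 and SMG1P3, which had 0 counts in all 12 libraries, and the opposite-strand gene ENSG00000260466, which covers 5.71% of the exon bases and had group means of 0.102 to 0.250 CPM. Whether reads that match several places were counted for SLC7A5 is not given in the sources used here.

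The heavy chain SLC3A2, which brings SLC7A5 and SLC7A6 to the cell surface, was lowest in the same group. It measured 412, 393 and 395 CPM in siControl, 389.6, 437 and 430.2 in siSLC25A1, 363, 368 and 373 in siACLY and 276, 269 and 305 in siACO1. Its log2 fold change was -0.49 (adjusted p 1.19e-09) in siACO1 and -0.12 (adjusted p 0.0432) in siACLY, and 0.07 (adjusted p 0.347) in siSLC25A1. The siACLY call was lost on leaving out any 1 of its 3 libraries or of the siControl libraries (largest adjusted p 0.169). SLC3A1, the other heavy chain, was not tested.

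SLC7A6 (ENSG00000103064.15, chr16:68264516-68301823, plus strand) fell in siACLY. It was at 60.4, 56.7 and 61.3 CPM in siControl and at 50.3, 51.5 and 49.4 in siACLY, with no overlap, a log2 fold change of -0.24 (SE 0.06, adjusted p 0.00288). In siSLC25A1 it was at 60.4, 58.4 and 55.0 CPM (change -0.04, interval -0.16 to 0.09, adjusted p 0.748) and in siACO1 at 57.5, 63.2 and 50.4 (change -0.06, interval -0.18 to 0.07, adjusted p 0.483), or 0.02 (adjusted p 0.785) without siACO1 replicate 3. SLC7A6 shares 44.4% of its exon bases with SLC7A6OS and 11.1% with another gene on the opposite strand, and whether the counting used strand is not given in the sources used here, so reads of these genes may be mixed. SLC7A6OS itself was at 14.5 CPM in siControl and 10.5 in siSLC25A1, a change of -0.46 (adjusted p 0.000231), with -0.05 (adjusted p 0.694) in siACLY and -0.10 (adjusted p 0.359) in siACO1. SLC7A6 also differed between siSLC25A1 and siACLY by 0.20 (adjusted p 0.0124) and between siACLY and siACO1 by -0.18 (adjusted p 0.0209). The first was lost without siSLC25A1 replicate 1 (adjusted p 0.066), and the second without siACLY replicate 1 (0.0529), siACLY replicate 3 (0.067) or siACO1 replicate 2 (difference -0.10, adjusted p 0.217). Without siACO1 replicate 3 the second was larger, at -0.27 (adjusted p 9.33e-05), and the uncalled difference between siSLC25A1 and siACO1 went from 0.02 (adjusted p 0.798) to -0.06 (adjusted p 0.429).

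SLC43A1 (ENSG00000149150.9, chr11:57484534-57515786, minus strand), the facilitated carrier of branched-chain amino acids, rose in siACLY. It was at 10.9, 11.5 and 11.6 CPM in siControl and at 15.3, 13.95 and 14.99 in siACLY, a log2 fold change of 0.39 (SE 0.09, adjusted p 0.000843). The siSLC25A1 libraries, at 12.4, 13.2 and 12.9 CPM, all lay above siControl, but the change of 0.18 did not pass (adjusted p 0.168). In siACO1 it was at 8.81, 11.1 and 10.9 CPM, a change of -0.13 (adjusted p 0.273) that overlapped siControl. It was higher in siACLY than in siACO1 by 0.52 (adjusted p 2.36e-05). The difference between siSLC25A1 and siACO1, 0.31 (adjusted p 0.0068), rested on siACO1 replicate 1, without which it was 0.22 (adjusted p 0.0622). Between siSLC25A1 and siACLY it was -0.20 (adjusted p 0.0773).

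Among the exchangers and carriers of cationic and small neutral amino acids, SLC7A1 moved in both directions. SLC7A1 (ENSG00000139514.13, chr13:29509410-29595688, minus strand), the arginine and lysine carrier whose promoter window is printed above, was at 231, 224 and 230.5 CPM in siControl. It rose to 277, 289 and 293 CPM in siSLC25A1 and to 266, 272 and 290.3 in siACLY, and fell to 182, 168 and 155 in siACO1. No siControl library overlapped any of the 3 knockdowns. The log2 fold changes were 0.33 (SE 0.05, adjusted p 8.03e-06), 0.27 (SE 0.05, adjusted p 3.71e-05) and -0.44 (SE 0.05, adjusted p 1.8e-08), the last being -0.39 without siACO1 replicate 3. Between siSLC25A1 and siACLY the difference was 0.05 (adjusted p 0.431), whereas siACO1 lay below them by 0.77 (adjusted p 1.52e-13) and 0.72 (adjusted p 8.33e-13).

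SLC1A4 (ENSG00000115902.11, chr2:64988477-65023865, plus strand), the alanine, serine and cysteine exchanger, had the largest rise of the 10. Its libraries were at 46.0, 42.0 and 43.7 CPM in siControl, 57.0, 72.6 and 67.7 in siSLC25A1, and 69.3, 70.0 and 74.3 in siACLY. The changes were 1.5-fold in siSLC25A1 (log2 0.58, SE 0.07, adjusted p 4.97e-07) and 1.62-fold in siACLY (log2 0.70, SE 0.07, adjusted p 8.12e-09). Replicate 1 of siSLC25A1 was lower than the other libraries of its group but still above all siControl libraries. In siACO1 it was at 38.2, 37.6 and 41.5 CPM, each below all siControl libraries, and its change of -0.17 did not pass (adjusted p 0.0605). That value lay near the threshold: without siACO1 replicate 3 it was -0.21 (adjusted p 0.0218), without siSLC25A1 replicate 1 or 2 the adjusted p was 0.017 or 0.0325, and with the replicate number as a block the change was -0.17 (adjusted p 0.0493). The siACO1 level was below siSLC25A1 by 0.75 (adjusted p 2.04e-09) and below siACLY by 0.86 (adjusted p 1.33e-10). The difference between siSLC25A1 and siACLY was -0.11 (interval -0.25 to 0.02, adjusted p 0.189), and -0.19 (adjusted p 0.0354) without siSLC25A1 replicate 2.

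SLC1A5 (ENSG00000105281.12, chr19:46774883-46788594, minus strand), the exchanger for which glutamine is a main substrate, fell in siACLY and siACO1. It was at 298.5, 298.5 and 303 CPM in siControl and at 301, 314 and 315.5 in siSLC25A1, a change of 0.05 (adjusted p 0.414). It was at 259.7, 259.6 and 258 CPM in siACLY and at 259.9, 254 and 267 in siACO1, with no overlap with siControl in either. Both log2 fold changes were -0.21 (SE 0.04), with adjusted p 4.92e-05 and 6.99e-05. Between those knockdowns the difference was -0.01 (interval -0.08 to 0.07, adjusted p 0.906). Exons of an antisense gene at 0.270 to 0.408 CPM overlap 23.4% of its exon bases.

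Of the system A pair, SLC38A1 (ENSG00000111371.16, chr12:46183063-46270017, minus strand) rose in siSLC25A1, from 303, 318 and 302 CPM in siControl to 360.2, 381 and 379, a log2 fold change of 0.28 (SE 0.04, adjusted p 1.65e-05). In siACLY it was at 296, 306 and 319 CPM (change -0.01, interval -0.09 to 0.08, adjusted p 0.94), overlapping siControl. In siACO1 it fell to 281.4, 281.2 and 258 CPM, a change of -0.17 (SE 0.04, adjusted p 0.00212), or -0.13 (adjusted p 0.00468) without replicate 3. The knockdowns stood apart from each other, siSLC25A1 above siACLY by 0.28 (adjusted p 5.72e-06) and siACLY above siACO1 by 0.17 (adjusted p 0.00243).

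SLC38A2 (ENSG00000134294.14, chr12:46358189-46372867, minus strand), its neighbour on chromosome 12, was the one transporter called higher in all 3 knockdowns. Its libraries were at 920.4, 911 and 895 CPM in siControl, 989, 952 and 1004 in siSLC25A1, 1043, 1034 and 1032 in siACLY, and 1109, 1126 and 1113 in siACO1. No knockdown library overlapped siControl. The log2 fold changes were 0.11 (SE 0.04, adjusted p 0.0306), 0.19 (SE 0.04, adjusted p 0.000137) and 0.30 (SE 0.04, adjusted p 1.73e-07). The change in siSLC25A1 stayed at 0.09 to 0.13 over the left-out libraries, but its call lay near the threshold. That call was lost without siControl replicate 1 (adjusted p 0.0655), 2 (0.0789) or 3 (0.134), without siSLC25A1 replicate 1 (0.0559) or 3 (0.156), and without the filter on low counts (0.149). Between siSLC25A1 and siACO1 the difference was -0.18 (adjusted p 0.000142). Between siACLY and siACO1 it was -0.11 (adjusted p 0.0197), lost without siACLY replicate 2 (0.0547), siACLY replicate 3 (0.0582) or siACO1 replicate 2 (0.063). Between siSLC25A1 and siACLY it was -0.08 (adjusted p 0.0999), and passed at -0.07 (adjusted p 0.0455) without siACO1 replicate 3, with library totals (-0.12, adjusted p 0.0093) and with at least 10 counts in every library (-0.09, adjusted p 0.0449).

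SLC6A9 (ENSG00000196517.13, chr1:43991500-44031467, minus strand), the glycine carrier, passed in no comparison with siControl. It was at 63.4, 56.8 and 61.3 CPM in siControl, 59.1, 65.8 and 74.1 in siSLC25A1, 53.6, 56.3 and 57.1 in siACLY, and 59.9, 55.1 and 65.9 in siACO1. The changes were 0.13 (interval -0.02 to 0.28, adjusted p 0.226), -0.12 (interval -0.27 to 0.03, adjusted p 0.203) and 0.00 (interval -0.15 to 0.15, adjusted p 0.973). The siSLC25A1 libraries were widely spread, and without replicate 1 the change there was 0.21 (adjusted p 0.0349). It was higher in siSLC25A1 than in siACLY by 0.25 (adjusted p 0.0102), but not without siSLC25A1 replicate 3 (0.17, adjusted p 0.0664). The difference between siSLC25A1 and siACO1, 0.13 (adjusted p 0.144), passed without siSLC25A1 replicate 1 (0.21, adjusted p 0.0145) or siACO1 replicate 3 (0.21, adjusted p 0.0182). That between siACLY and siACO1, -0.12 (adjusted p 0.21), passed without siACO1 replicate 2 (-0.18, adjusted p 0.0476).

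SLC36A4 (ENSG00000180773.15, chr11:93144171-93197964, minus strand), the proline and tryptophan carrier, rose most in siACO1. It was at 24.5, 23.4 and 21.2 CPM in siControl and at 30.5, 29.1 and 33.6 in siACO1, a log2 fold change of 0.43 (SE 0.08, adjusted p 5.73e-05), or 0.36 (adjusted p 0.000303) without siACO1 replicate 3. In siSLC25A1 it was at 32.2, 26.3 and 25.7 CPM, a change of 0.28 (SE 0.08, adjusted p 0.00941). That call was lost without siSLC25A1 replicate 1, the highest of the group (0.17, adjusted p 0.141), or without siControl replicate 3, the lowest of its group (0.23, adjusted p 0.0711). In siACLY, at 25.2, 26.5 and 25.9 CPM, all libraries lay above siControl, and the change was 0.16 (SE 0.08, adjusted p 0.109). It was lower in siACLY than in siACO1 by 0.27 on the log2 scale (difference -0.27, adjusted p 0.00592), or -0.21 (adjusted p 0.031) without siACO1 replicate 3. The difference of -0.14 between siSLC25A1 and siACO1 (adjusted p 0.144) passed without siSLC25A1 replicate 1 (-0.25, adjusted p 0.00945). Without siACO1 replicate 3 it shrank to -0.08 (adjusted p 0.477).

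Likeness of pattern was described by Pearson's r of log2 CPM over the 12 libraries, which hold 4 groups of 3, so it follows mainly the group means. Among the transporters, SLC7A5 and SLC1A5 had r = 0.85, SLC7A1 and SLC1A4 0.88, SLC1A4 and SLC43A1 0.88, SLC38A2 and SLC36A4 0.75, and SLC7A5 and SLC38A2 -0.88. Of 9958 genes averaging 5 CPM or more, the one most like SLC1A4 was TRIB3 (r = 0.986), a pseudokinase induced by ATF4. The most like SLC7A5 was CDR2L (0.989), and the most like SLC1A5 was PMM2 (0.988), a phosphomannomutase of protein glycosylation. ZBTB21 (0.987) was closest to SLC7A1, FARP1 (0.977) to SLC38A1, VAMP3 (0.978), a vesicle fusion protein, to SLC38A2, and TOM1L1 (0.967) to SLC43A1. Lower values were reached by STMN1 (0.935), a microtubule regulator, for SLC36A4, by SRPK1 (0.931), a kinase of splicing factors, for SLC7A6, and by SLC27A4 (0.878), a fatty acid transport protein, for SLC6A9.

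Most tested genes of the amino acid response, a list of 18 genes, were called higher in siSLC25A1 and siACLY and lower in siACO1. Of its 16 tested genes, 12 rose and 0 fell in siSLC25A1, 13 rose and 0 fell in siACLY, and 0 rose and 10 fell in siACO1. Among all tested genes, 10.3% were called higher and 9.27% lower in siSLC25A1, 18.4% and 18.3% in siACLY, and 17.8% and 19.3% in siACO1. The medians were 0.31, 0.45 and -0.27 (log2), against 0.00, 0.01 and 0.01 over all tested genes. In siACO1, 6 of the 16 were not called. Of these, 5 had a positive change: NUPR1 (0.54), EIF2AK3 (0.19), DDIT3 (0.14), PPP1R15A (0.05) and EIF2AK4 (0.02). Leaving out each library in turn left 8 to 12 rising in siSLC25A1, 12 to 14 in siACLY and 8 to 10 falling in siACO1, 10 of them without siACO1 replicate 3. At an unadjusted p below 0.05, 0 fell in siSLC25A1, 1 fell in siACLY and 1 rose in siACO1, and DESeq2 called 0 in each of these. SESN2 and STC2 were not tested. The list was drawn up with results of these libraries known and is no independent evidence of its direction.

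ATF4 itself was at 357, 327 and 348 CPM in siControl and at 426, 460.0 and 439 in siSLC25A1, a log2 fold change of 0.36 (adjusted p 1.34e-06). It was at 372, 395 and 401 CPM in siACLY (0.18, adjusted p 0.0035) and at 245, 237 and 270.1 in siACO1 (-0.46, adjusted p 7.72e-09). All groups stood clear of siControl, and the highest level was in siSLC25A1, not in siACLY. In siSLC25A1 the genes with the largest rises were DDIT3 (0.63, adjusted p 6.32e-06), which encodes the stress factor CHOP, TRIB3 (0.62, adjusted p 1.65e-08), ATF3 (0.58, adjusted p 0.000212) and PPP1R15A (0.52, adjusted p 2.79e-08), the phosphatase subunit GADD34. In siACLY they were NUPR1 (1.76, adjusted p 2.39e-06, from 0.727 to 2.45 CPM), TRIB3 (0.89, adjusted p 1.26e-11), ATF3 (0.86, adjusted p 1.56e-07) and DDIT3 (0.83, adjusted p 1.58e-08). In siACO1 the largest falls were in VLDLR (-0.95, adjusted p 8.49e-07), a lipoprotein receptor, ASNS (-0.76, adjusted p 4.24e-06), ATF5 (-0.49, adjusted p 1.41e-09) and ATF4.

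ASNS, asparagine synthetase, is the textbook target of this response and passed in siACLY and siACO1. It was at 12.1, 9.84 and 9.61 CPM in siControl, 9.17, 12.3 and 10.6 in siSLC25A1, 17.5, 16.5 and 17.7 in siACLY, and 6.76, 6.50 and 5.49 in siACO1. The siSLC25A1 libraries overlapped siControl (0.01, adjusted p 0.965), whereas siACLY lay wholly above it (0.71, adjusted p 2.39e-06) and siACO1 wholly below. Between knockdowns, 3 of the 16 response genes were higher and 8 lower in siSLC25A1 than in siACLY, beside 17.5% and 16.3% of all tested genes. The 3 higher genes are near that share. Against siACO1, 14 were higher in siSLC25A1 and 14 in siACLY, beside 21.8% and 21.4% of all tested genes.

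**Figure D4:**
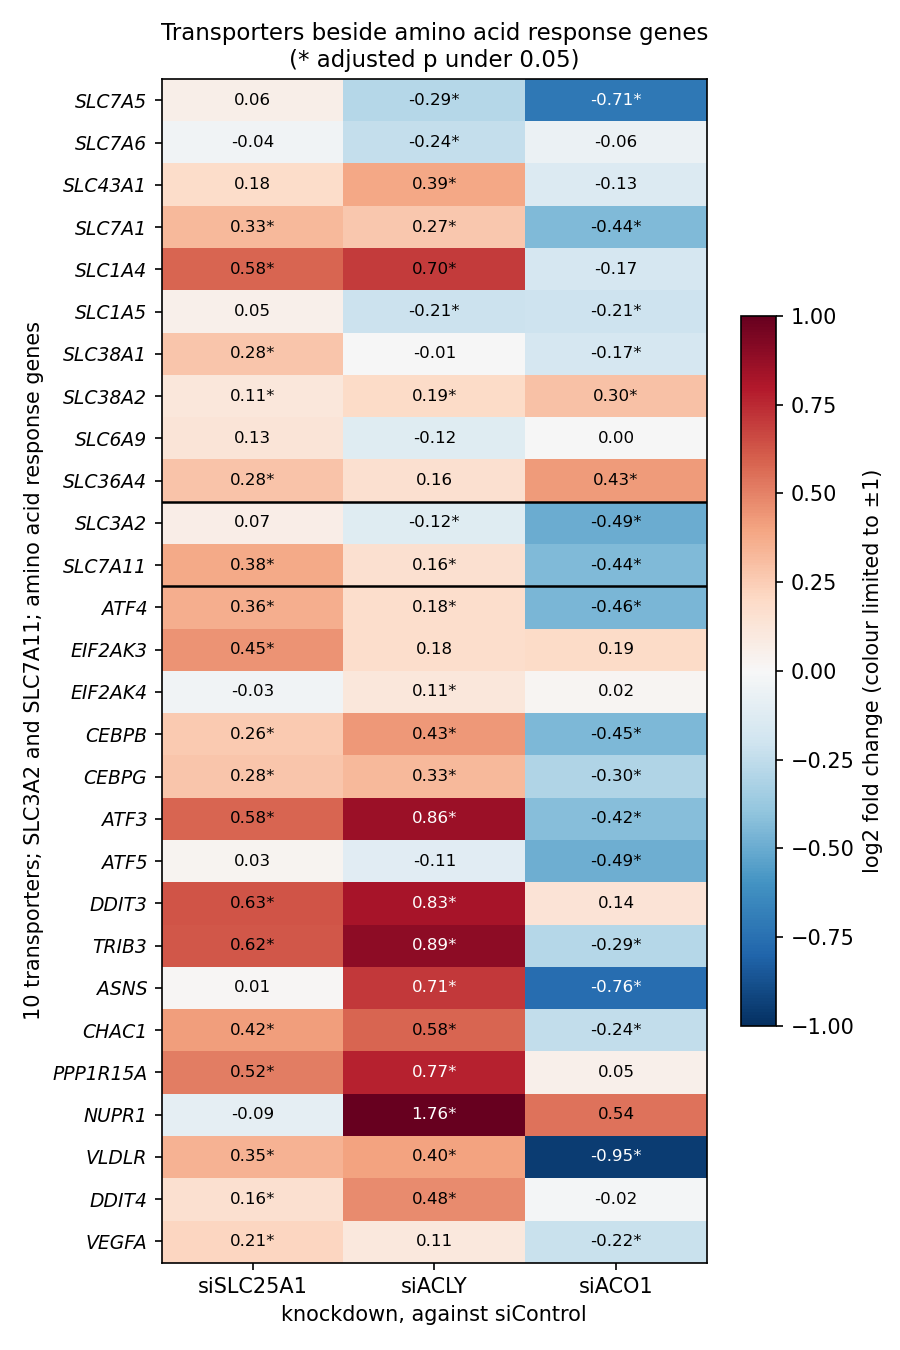
Log2 fold change against siControl (colour, limited to 1 in either direction; numbers in the cells) of the 10 transporters, SLC3A2, SLC7A11 and the tested amino acid response genes in the 3 knockdowns; an asterisk marks an adjusted p below 0.05. ATF4, TRIB3 and SLC7A1 are positive in siSLC25A1 and siACLY and negative in siACO1; SLC38A2 and SLC36A4 are positive in siACO1, where 10 response genes fell.

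Other carriers of neutral and cationic amino acids were mostly unread in these cells: of 18 further genes, 6 were tested. In siSLC25A1 0 passed with edgeR, 0 at an unadjusted p below 0.05 and 0 with DESeq2. Of all tested genes, 10.3% were called higher and 9.27% lower there, so 0 of 6 is not read as a trait of these carriers. In siACLY 1 rose and in siACO1 1 rose and 2 fell, beside 18.4% of all tested genes called higher in siACLY, and 17.8% higher and 19.3% lower in siACO1. A share of 1 in 6 is near these. The siControl means of SLC7A7 (0.494), SLC38A5 (0.621), SLC43A2 (0.625) and SLC16A10 (0.596 CPM) were near the floor of the filter on low counts. SLC38A4, a system A carrier that also takes cationic amino acids, was at 13.4, 14.4 and 15.2 CPM in siControl and at 22.5, 21.5 and 20.6 in siACO1, a log2 fold change of 0.59 (adjusted p 3.45e-07). In siACLY it was at 16.6, 17.4 and 15.9 CPM, a change of 0.21 (adjusted p 0.0289) that was lost without siControl replicate 1 or 2 or siACLY replicate 1 or 2 (largest adjusted p 0.158). The arginine carrier SLC7A2 fell from 2.63 ± 0.151 to 1.57 ± 0.376 CPM in siACO1 (-0.76, adjusted p 0.00338) and SLC43A2 (LAT4) from 0.625 ± 0.204 to 0.161 ± 0.0958 CPM (-1.95, adjusted p 0.00123). SLC43A2 had 30, 22 and 12 counts in the siControl libraries and 4, 2 and 8 in siACO1, near the floor of the filter on low counts. It can pass that filter through the groups where it is higher, so this fall is a description only.

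Of 6 carriers of acidic amino acids or cystine, 3 were tested. SLC7A11, the cystine-glutamate exchanger xCT and another SLC3A2 partner, was at 52.0, 48.9 and 50.2 CPM in siControl and rose to 61.4, 71.3 and 63.7 in siSLC25A1 (0.38, adjusted p 2.5e-05). It fell to 37.1, 39.3 and 35.0 CPM in siACO1 (-0.44, adjusted p 1.32e-06). In siACLY, at 53.3, 55.2 and 60.6 CPM, it rose by 0.16 (adjusted p 0.0362), a call lost without siControl replicate 2 or 3 or siACLY replicate 2 or 3 (largest adjusted p 0.25). SLC1A1, a glutamate carrier, rose in siACLY from 0.161 ± 0.0200 to 0.622 ± 0.310 CPM (1.87, adjusted p 0.00859), and lost the call without siACLY replicate 3 (adjusted p 0.0853). These levels are near the floor of the filter on low counts. A gene so low can pass that filter through the group where it is high, so this rise is a description only.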

How the data were processed

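Poly(A) RNA of 12 libraries (4 siRNA groups, 3 replicates) was sequenced, per the labels' protocols. The authors deposited 1 table of whole, unnormalised read counts per gene, per the file headers. The submitters' processing notes name CASAVA, FastQC, Trim Galore, STAR 2.7.0e, DESeq2 and the builds GRCh38 and GRCm39 without roles; the counting tool, its annotation and its use of strand are not given in the sources used here. Of 70116 rows, 32582 had counts and 89.4% had a symbol; rows with no symbol took 0.119 to 0.148% of a library's counts.

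Counts were filtered with filterByExpr (minimum count 10, total 15), scaled by TMM (factors 0.978 to 1.03) and fitted with edgeR 4.0.16 (R 4.3.3, robust quasi-likelihood, 8 residual degrees of freedom) over all 4 groups, so that they share 1 estimate of spread. The adjusted p is Benjamini-Hochberg over 16197 genes and 0.05 the threshold. SE is the log2 fold change divided by the root of F, and intervals are 95%. CPM are counts scaled by TMM library size. Common biological variation was 4.89%, and replicates of a group correlated at 0.991 to 0.994. On simulated counts for siACLY against siControl (15848 genes), 82.0% of genes with a true log2 change of size 1 and 68.0% of those with size 0.5 were called, with 14 of 15651 unchanged genes. The simulation changed only 100 and 97 genes of these sizes, whereas 5943 were called in the data, so its adjusted threshold was stricter. Its rates cover genes of all levels and do not give the chance of a call for the transporters.

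The 10 transporters and all gene lists were chosen with earlier results of these data known. Named genes were all transporters, of each other list the called genes with the largest changes (at most 4 in each direction), for each transporter the gene with the highest r, and the siRNA targets; ASNS beyond these, SLC7A6OS and values of non-called genes were added after their values were seen. Alternatives were DESeq2 1.42.0, median-of-ratios and library-total scaling, other filters, pairs of groups alone, a replicate block and leaving out each library. Replicate numbers did not pair the libraries.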

Additional observations from a re-analysis of the deposited data

How the results depend on the processing

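Across 19 alternatives, 12 of which left out 1 library, 43 of 60 transporter differences kept their side of the threshold (24 of 30 with siControl, 19 of 30 between knockdowns). No called difference changed direction; 5 uncalled ones near 0 changed sign under some alternatives (SLC7A6 and SLC6A9 in siACO1, SLC38A1 in siACLY, SLC7A6 between siSLC25A1 and siACO1, and SLC1A5 between siACLY and siACO1). Of 1140 recomputed values, 21 lost and 20 gained the threshold. DESeq2 and median-of-ratios scaling changed 0 calls. Transporters lower in siSLC25A1 than in siACLY were 2 with library totals and 1 with at least 10 counts in every library, against 0, and 0 to 1 over the left-out libraries. Those lower in siSLC25A1 than in siACO1 were 2 with library totals, against 1, and 1 to 2. Those lower in siACLY than in siACO1 were 1 with the 2 groups alone, against 3, and 1 to 3. Those higher in siSLC25A1 than in siControl were 3 to 5, with 3 without siControl replicate 3. The cause was not tested.

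Library totals raised the share of called genes that were higher to 61.0% in siACLY (50.1% otherwise) and 59.4% in siACO1 (47.9%), and lowered it to 41.0% and 42.3% for siSLC25A1 against siACLY and siACO1 (51.8% in both). Under them SLC36A4 passed in siACLY (0.20, adjusted p 0.0365) and between siSLC25A1 and siACO1 (adjusted p 0.0492), SLC38A2 (-0.12, adjusted p 0.0093) and SLC43A1 (adjusted p 0.0344) passed between siSLC25A1 and siACLY, and SLC7A6 there did not (adjusted p 0.0626). Replicate numbers did not pair the libraries: 18 correlations of deviations lay between -0.034 and 0.067, with 0 over 0.1, and 6 of 12 libraries correlated best with their own number. A replicate block gave 3270, 6038 and 6092 called genes in siSLC25A1, siACLY and siACO1, against 3173, 5943 and 6008, and 5 transporters lower in siACO1, against 4. With each pair of groups alone, SLC6A9 (adjusted p 0.0262) and SLC36A4 (adjusted p 0.0412) passed in siACLY. The SE of a transporter's log2 change was 0.04 to 0.09, which sets the smallest difference detectable here.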

Other observations

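Amino acid carriers of the lysosome changed in a mixed way. Of 9 listed genes, 8 were tested: 2 rose and 1 fell in siSLC25A1, 3 rose and 1 fell in siACLY, and 3 rose and 1 fell in siACO1, with medians of 0.10, 0.13 and 0.13 (log2). Of all tested genes 10.3% were called higher and 9.27% lower in siSLC25A1, 18.4% and 18.3% in siACLY, and 17.8% and 19.3% in siACO1, so that 1 fall among 8 genes is near the share over all genes. SLC38A7, a lysosomal glutamine and asparagine carrier, was at 69.7, 69.8 and 69.4 CPM in siControl and was called higher in all 3 knockdowns, by 0.21 (adjusted p 0.0136), 0.27 (adjusted p 0.000797) and 0.18 (adjusted p 0.0217). The first call was lost without siSLC25A1 replicate 3, and the last without any 1 siControl library or siACO1 replicate 1 or 2. SLC38A9, the lysosomal arginine sensor, rose by 0.33 (adjusted p 0.00668) in siSLC25A1 and 0.30 (adjusted p 0.00686) in siACO1, and both calls were lost without siControl replicate 1. SLC15A3, a peptide and histidine carrier, rose by 0.84 (adjusted p 0.00117) in siACLY and 1.08 (adjusted p 5.82e-05) in siACO1. SLC66A1, the lysosomal exporter of cationic amino acids, rose by 0.20 (adjusted p 0.007) in siACLY. MFSD12, a lysosomal cysteine importer, fell from 98.2, 97.8 and 98.7 CPM in siControl to 73.7, 67.3 and 81.2 in siACLY and to 75.9, 72.9 and 74.9 in siACO1, by -0.41 (adjusted p 3.44e-07) and -0.40 (adjusted p 4.84e-07). Its change of -0.15 in siSLC25A1 (adjusted p 0.0351) was lost without any 1 siControl library or siSLC25A1 replicate 1 or 2.

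Genes of the machinery by which mTORC1 senses amino acids were a list of 32, of which 30 were tested. In siSLC25A1, 0 rose and 4 fell (0 to 3 rose and 2 to 4 fell on leaving out each library; 2 rose at an unadjusted p below 0.05 and 0 with DESeq2), in siACLY 11 rose and 2 fell, and in siACO1 6 rose and 2 fell. Without siACO1 replicate 3, 4 rose and 4 fell there. Of all tested genes, 10.3% were called higher and 9.27% lower in siSLC25A1, and 18.4% higher in siACLY. Among those averaging 10 CPM or more, 13.1% were lower in siSLC25A1, so the 4 falls among 30 genes are near that share. The siACO1 rises are near the 17.8% of all tested genes called higher there, and the falls in siACLY and siACO1 are below the 18.3% and 19.3% called lower. In siSLC25A1 the largest fall was in LAMTOR1, which anchors the Ragulator complex to the lysosome, from 97.6, 96.1 and 100.6 CPM to 63.6, 61.0 and 60.6 (-0.67, adjusted p 4.99e-10). LAMTOR4, of the same complex, fell by -0.45 (adjusted p 0.000196). BMT2 (-0.31, adjusted p 0.0467) and RRAGB (-0.25, adjusted p 0.0294) each lost the call without some single libraries, BMT2 in 6 of 12 cases and RRAGB in 4. In siACLY the largest rises were in the Rag GTPase RRAGD (0.63, adjusted p 1.64e-06), SESN1 (0.52, adjusted p 2.27e-05), a leucine-responsive inhibitor, folliculin (FLCN, 0.40, adjusted p 1.47e-07) and its partner FNIP2 (0.39, adjusted p 1.33e-05). The falls there were in RPTOR (-0.24, adjusted p 0.000346) and LAMTOR5 (-0.17, adjusted p 0.0112), the latter lost without siControl replicate 2 or siACLY replicate 1. In siACO1, CASTOR2 rose by 0.67 (adjusted p 9.51e-05) and SESN1 by 0.34 (adjusted p 0.00317), while SEH1L (-0.33, adjusted p 1.64e-07) and MIOS (-0.27, adjusted p 7.76e-05), both of the GATOR2 complex, fell.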
